A study of Arabidopsis thaliana with 6 samples.

Results

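Genes of pectin-modifying enzymes were compared between leaves of an Arabidopsis thaliana BRAHMA mutant and leaves of a wild-type reporter line. Members were the probe sets whose title in the deposited table names a pectinesterase, polygalacturonase, pectinase or pectate lyase. This rule took 149 of the 22808 probe sets of the array, each with its own locus code. By title, 60 were pectinesterases, 56 polygalacturonases and 25 pectate lyases. The same words also brought in 8 probe sets of proteins that are not themselves described as these enzymes. They were 3 BURP domain proteins, 3 proteins with a pectinesterase inhibitor domain and the 2 polygalacturonase-inhibiting proteins PGIP1 and PGIP2.

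The study measured total RNA from leaves of 2-week-old seedlings on Affymetrix ATH1 arrays, with 3 arrays of each genotype. The mutant is essp3, an allele of BRAHMA (BRM), which encodes an ATPase that remodels chromatin as part of a SWI/SNF complex; the labels also call it brm5 and brm-6 and do not give the lesion. The wild type is the ProβCG:GUS line, in which a seed storage protein promoter drives a β-glucuronidase reporter. The labels name the reporter for the wild type alone and do not say whether the mutant carries it too. Seedlings grew on agar with 1.5% sucrose under 16 h of light and 8 h of dark, and the labels call the 3 samples of a genotype biological replicates.

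Pectin is the gel-forming polysaccharide of the primary plant cell wall, and its main part is a chain of galacturonic acid that reaches the wall in a methyl-esterified form. Pectinesterases, also called pectin methylesterases, remove the methyl groups, which lets neighbouring chains be joined by calcium or exposes them to degradation. Polygalacturonases cut the chain by hydrolysis and pectate lyases cut it by elimination. In leaves these enzymes are known to act in cell expansion, cell separation and the mechanics of stomata, and many members of each family are known from pollen.

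Values are MAS5 signals, the summary of each probe set's brightness in arbitrary units, which the authors scaled to the same mean on every array. A signal says how one probe set compares between arrays and not how much transcript of one gene there is against another. MAS5 also gives each probe set a detection call on each array (Present, Marginal or Absent). A probe set was tested where it was Present on at least 3 of the 6 arrays, and was called changed at an adjusted p below 0.05 over all 13626 tested probe sets. Log2 changes are mutant minus wild type with their standard error (SE), and group values are mean ± SD of 3 arrays.

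Between 12863 and 13761 probe sets were Present on an array, and the first principal component, with 61.2% of the variance, separated the genotypes. The array names in the table's key carry one code for the mutant arrays and another for the wild-type arrays. Whether the codes mark separate runs was not established, and a difference between such runs could not be told apart from genotype. The control probe set for 25S ribosomal RNA gave 439 ± 59.9 in the mutant and 5579 ± 1947 in the reporter line. The signal at the 3′ end of actin over that at its 5′ end was 2.57 to 2.86 in the mutant and 2.29 to 2.61 in wild type, and that of GAPDH 0.809 to 1.28 and 0.830 to 1.01, so both ratios overlapped between genotypes. The part of the difference in 25S signal in the results was not tested. The leaf label fitted the markers: RBCS1A, RCA and CA1, genes of leaf photosynthesis, were Present on all arrays and did not pass the test. All 3 pollen markers and all 3 shoot meristem markers had no Present call, and neither did 2 of 3 root markers and 3 of 4 flower markers. Guard cell markers moved with the genotype. Of 4, 3 fell. These were AT1G22690 (log2 change -1.81, SE 0.13, adjusted p = 8.24e-07), the guard cell transcription factor gene MYB60 (-1.31, adjusted p = 4.38e-04) and the guard cell potassium channel gene KAT1 (-1.02, adjusted p = 0.00212). The summed signal of all 4 was 5777 to 5932 in the mutant against 16518 to 22483 in wild type. Most of that sum came from AT1G22690, at 4787 ± 186 in the mutant and 16930 ± 3264 in wild type. FMA, also known as FAMA, had -0.27 (adjusted p = 0.290). In bulk leaves, fewer cells of a type and less RNA per cell cannot be told apart, and the part of guard cells in the results below was not tested. Of 4 tested xylem markers, 1 rose (XCP1, log2 change 0.89, adjusted p = 0.00111). The others did not pass: XCP2 had 0.27 (adjusted p = 0.120), IRX1 0.35 (0.300) and IRX3 -0.36 (0.330). XCP2 and IRX1 were higher on every mutant array.

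Most of the pectin-modifying genes were detected rarely or not at all in these leaves. Of the 149 members, 82 (55.0%) had no Present call, against 32.4% of all probe sets other than controls, and 49 (32.9%) passed the detection filter, against 59.9%. Detection differed between the classes. Among pectinesterases 38 of 60 had no Present call and 17 were tested; among polygalacturonases 32 of 56 had none and 16 were tested. Pectate lyases were detected more often, with 8 of 25 never Present and 12 tested. Of the rest, 2 BURP domain proteins and both PGIP genes were tested, and the 3 proteins with a pectinesterase inhibitor domain had no Present call.

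**Figure D1:**
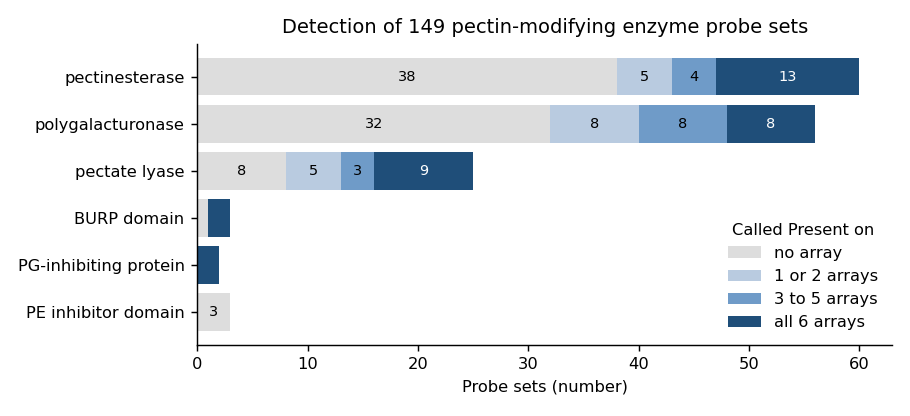
Number of member probe sets (horizontal axis) by class (rows), split by the number of arrays on which the probe set was called Present. Of 149 probe sets, 82 were Present on no array and 34 on all 6; pectinesterases and polygalacturonases were mostly undetected, whereas 9 of 25 pectate lyases were Present on every array.

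Several members known from reproductive tissue were among those not tested. VGD1, a pectinesterase gene required for pollen tube growth, QRT1 and QRT2, a pectinesterase and a polygalacturonase gene needed to separate pollen grains, and PGAZAT (ADPG2), a polygalacturonase gene of abscission and dehiscence, were not tested. VGD1 read between 2.93 and 54.4 on the 6 arrays and QRT1 between 3.31 and 98.4. QRT2 was Present on 1 mutant array. PGX1 (AT3G26610), known from cell expansion, read between 22.8 and 81.0 without a Present call. ADPG1, a dehiscence zone polygalacturonase gene, read 79.9, 66.9 and 62.9 in the mutant and 19.6, 2.93 and 6.03 in wild type, with 1 Present call, in the mutant. All mutant arrays of ADPG1 thus read above all wild-type arrays, but near or below detection. Over the 100 untested members, the arrays of one genotype all lay above the other for 5, against 12.9% of all untested probe sets.

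Transcripts of the detected members were more often higher than lower in the mutant. Of 49 tested members, 16 rose (32.7%) and 7 fell (14.3%), and 26 did not pass. Over all tested probe sets 14.4% rose and 13.9% fell, so 28.4% were called in all. The share of members that fell was thus close to the background, and the share that rose was above it. The median log2 change of the 49 was 0.28 against -0.01 over all tested probe sets. A positive change was seen in 36 of the 49, against 6748 of all 13626 tested probe sets. The arrays of the genotypes did not overlap for 30 of 49 members (61.2%), against 42.7% of all tested probe sets; 22 lay above wild type, as did 21.1% of all, and 8 below, as did 21.6%. Called changes of at least 2-fold numbered 8 among the members (16.3%) and made up 6.94% of all tested probe sets. Of the 8, 7 were rises and 1 a fall, against 3.98% and 2.96% of all tested probe sets. Most of these rises, those of AT1G67750, AT1G10640, AT1G60590, AT4G33440 and AT3G15720, were in genes Present on fewer than 3 wild-type arrays. ATPMEPCRB and PG2, which rose, and AT2G26440, which fell, were Present on all 6. In the authors' deposited table, 22 of the 49 had an unadjusted p under 0.05, against 32.8% of all tested probe sets, and 19 of these 22 are among the 23 called here.

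A member could pass the detection filter through the mutant arrays alone, and 5 of the 16 that rose were Present on fewer than 3 wild-type arrays. Among the 34 members Present on all 6 arrays, 12 rose (35.3%) and 8 fell (23.5%), against 15.5% and 15.2% of all such probe sets. With no detection filter, all 149 members were tested, of which 14 rose (9.40%) and 7 fell (4.70%), against 7.57% and 7.08% of all probe sets. On that count the share that rose was 1.24 times that of all probe sets, and the share that fell was below it. Leaving out 1 array gave between 12 and 14 members that rose. The number that fell depended more on single arrays. It was 4 without essp3 replicate 2 and 3 without wild-type replicate 2. The authors' deposited unpaired test, once adjusted over all tested probe sets, called 8 members higher and 3 lower. It ended the calls of ATPMEPCRB, AT3G49220, AT4G33440 and AT3G07010 (adjusted p = 0.0671, 0.0951, 0.0739 and 0.0696), which no other alternative ended, and of 8 genes described below whose calls also ended when single arrays were left out. Without the variance trend 13 members rose and 4 fell; the calls of PME3, PME5 and AT3G62110 ended (adjusted p = 0.0956, 0.0511 and 0.0783), as did those of AT3G24670, AT3G15720 and AT3G53190 (0.0654, 0.0529 and 0.0590). The shares describe this list and are not a test of it.

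**Figure D2:**
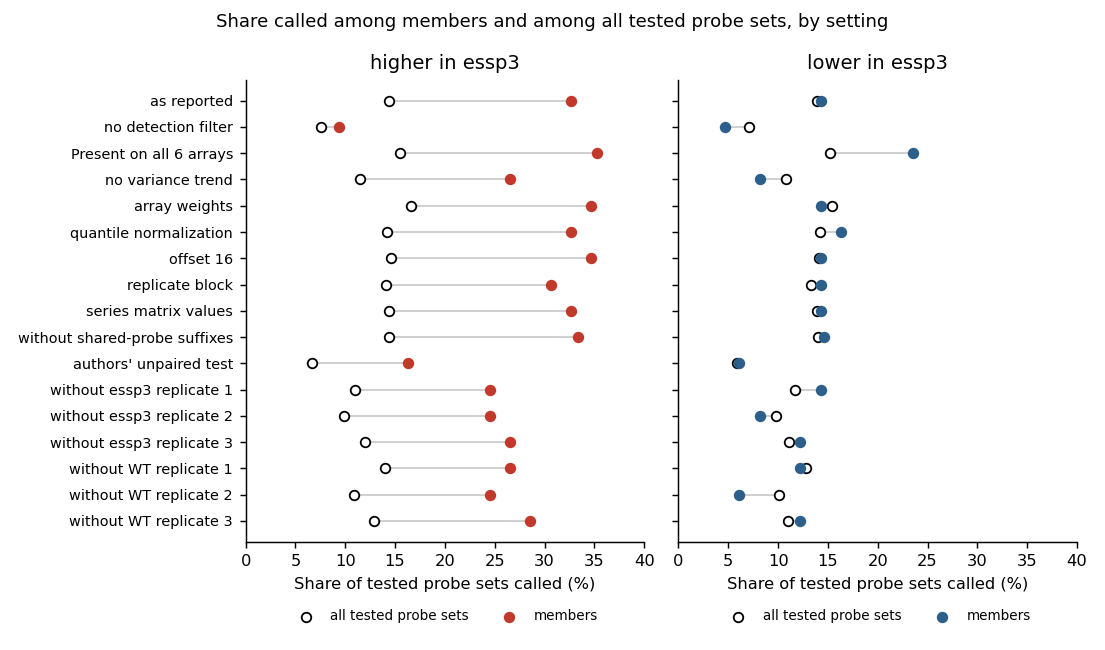
Share of tested probe sets called higher (left) or lower (right) in essp3, in percent, for the members (filled) and for all tested probe sets (open), as reported and under each of 16 alternative settings (rows). The share of members called higher exceeded that of all probe sets in each row, least without the detection filter, whereas the shares called lower lay on either side of each other.

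Pectinesterases changed in both directions. Of 17 tested, 6 rose (35.3%), 3 fell (17.6%) and 8 did not pass, with a median log2 change of 0.25. Over all tested probe sets 14.4% rose and 13.9% fell, so the share that fell was near the background. The largest changes of the class went opposite ways in 2 genes. ATPMEPCRB (AT4G02330, also PME41) read 692, 603 and 414 in the mutant against 106, 137 and 239 in wild type. Its groups did not overlap, and the log2 change was 1.88 (SE 0.29, adjusted p = 3.00e-04), a 3.68-fold rise. AT2G26440, also named PME12, read 407, 339 and 317 in the mutant against 1129, 1174 and 1579 in wild type. Every mutant array lay below every wild-type array, and the gene fell by 1.86 on the log2 scale (SE 0.17, adjusted p = 5.49e-06), 3.63-fold. Both genes were Present on all 6 arrays.

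The other pectinesterase changes were smaller than 2-fold. AT3G49220 read 3194, 4423 and 4799 in the mutant against 2377, 2286 and 2415 in wild type (log2 change 0.79, SE 0.15, adjusted p = 0.00138). PMEPCRF (AT5G53370) read 878, 835 and 714 against 491, 475 and 410 (0.82, SE 0.16, adjusted p = 0.00155). AT3G10720 read 3657, 3231 and 2971 against 1793, 2150 and 2074 (0.71, SE 0.13, adjusted p = 0.00117). In each of these 3 genes the mutant arrays all stood above wild type. PME44 (AT4G33220) went the other way, with 1559, 1433 and 1755 against 2795, 2401 and 2417 (log2 change -0.68, SE 0.13, adjusted p = 0.00169).

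Calls of 3 further pectinesterase genes did not last when 1 of several arrays was left out. PME5, whose overexpression is known to alter where organs form at the shoot tip, read 534, 644 and 391 in the mutant against 363, 304 and 310 in wild type (log2 change 0.66, SE 0.20, adjusted p = 0.0236). Its groups did not overlap, but the call ended without essp3 replicate 1 or 2 (adjusted p = 0.0732 and 0.132) and without wild-type replicate 2 or 3 (0.0765 and 0.0537), with log2 changes of 0.49 to 0.85 over the 6 arrays left out in turn. PME1 read 1556, 1449 and 1314 against 990, 1048 and 1114 (0.45, SE 0.13, adjusted p = 0.0211), again without overlap. That call ended without essp3 replicate 1 or 2 (adjusted p = 0.0808 and 0.0730) and without wild-type replicate 1 or 2 (0.0551 and 0.0592), whereas the log2 change kept to 0.40 to 0.52. PME3, known as a host target of a nematode protein and under the RefSeq name OVERLY ZINC SENSITIVE 2, fell. It read 2987, 4308 and 5377 in the mutant, a wide spread, and 6197, 6240 and 5826 in wild type (log2 change -0.57, SE 0.17, adjusted p = 0.0233). The PME3 call ended without essp3 replicate 1 or 2 (adjusted p = 0.0958 and 0.0547) or wild-type replicate 2 (0.0698), with log2 changes of -0.76 to -0.34.

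Among the 8 pectinesterases that did not pass was PME61 (AT3G59010, also PME35), a gene known for the mechanical strength of stems. It read 178, 285 and 139 in the mutant against 170, 170 and 199 in wild type, so the groups overlapped; the log2 change was 0.10 (95% interval -0.52 to 0.71, adjusted p = 0.837). The 8 log2 changes ran from -0.44 to 0.44. One untested pectinesterase, singled out after its values were seen, differed more. AT1G23200 read 77.0, 20.7 and 66.5 in the mutant, with no Present call, and 285, 274 and 357 in wild type, Present on 2 of 3. Its signal was 5.48-fold lower in the mutant. For this fold the mutant level was the higher of its own signal and the lowest Present signal of the array. As the gene was not detected in the mutant, the size of the fall is uncertain. With no detection filter its adjusted p was 0.00289.

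**Figure D3:**
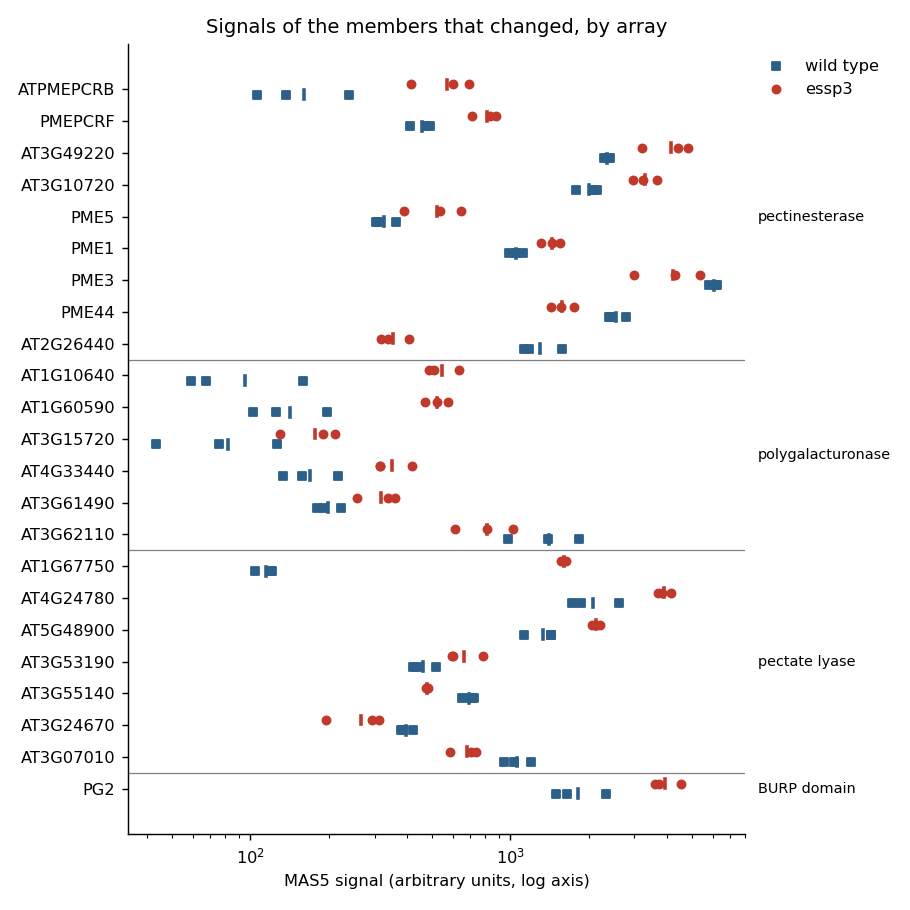
MAS5 signals (log axis, arbitrary units) of the 23 members that changed, 1 row per gene, with circles for the 3 essp3 arrays, squares for the 3 wild-type arrays and short bars for the group means. The groups separate in every row except AT3G62110; the widest gap is that of AT1G67750, at 1558 to 1641 against 105 to 121.

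Of the polygalacturonases that changed, most rose. Of 16 tested, 5 rose (31.2%) and 1 fell (6.25%), against 14.4% and 13.9% of all tested probe sets. Of the 16 log2 changes, 14 were positive, against 6748 of all 13626 tested probe sets. The median of the 16 was 0.24. Of those that rose, AT1G10640, AT1G60590, AT4G33440 and AT3G15720 were Present on fewer than 3 wild-type arrays. The direction of the class thus rests largely on genes with few Present calls in wild type. AT3G61490, which rose, and AT3G62110, which fell, were Present on all 6 arrays. AT1G10640 read 634, 509 and 487 in the mutant and 159, 67.3 and 59.3 in wild type (log2 change 2.65, SE 0.33, adjusted p = 6.24e-05), a 6.28-fold difference. AT1G60590 read 523, 574 and 470 against 197, 102 and 126 (1.93, SE 0.25, adjusted p = 7.48e-05), or 3.82-fold. AT4G33440 read 314, 316 and 417 against 218, 157 and 134 (1.06, SE 0.24, adjusted p = 0.00498). In all 3 genes the mutant arrays lay above wild type. In wild type each had 1 Present call of 3, which leaves the lower level and the size of the rise uncertain.

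The other polygalacturonase calls were close to the threshold. AT3G61490 read 359, 257 and 337 in the mutant against 191, 180 and 223 in wild type (log2 change 0.67, SE 0.22, adjusted p = 0.0329). Its call ended without essp3 replicate 1 or 3 (adjusted p = 0.126 and 0.0932) or wild-type replicate 1 or 2 (0.0683 and 0.0989), and with no detection filter (0.0906). AT3G15720 read 190, 130 and 212 against 75.8, 127 and 43.2 (1.22, SE 0.43, adjusted p = 0.0455), with the lowest mutant array just above the highest wild-type array. It was the least secure call of the list, ending under 11 of 15 alternatives, among them each single array left out except wild-type replicate 2 (adjusted p = 0.133, 0.0555 and 0.154 without essp3 replicates 1, 2 and 3, and 0.0684 and 0.119 without wild-type replicates 1 and 3). It also ended under array weights (0.115), quantile normalization (0.0705) and the replicate block (0.0663); its adjusted p ran from 0.0221 to 0.154. AT3G62110 was the member that fell, with 1019, 813 and 613 in the mutant and 1399, 1840 and 977 in wild type (log2 change -0.77, SE 0.22, adjusted p = 0.0193). Here the groups overlapped, and the call ended without essp3 replicate 2 or 3 (adjusted p = 0.0543 and 0.0912) or wild-type replicate 2 (0.101).

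Several well-detected polygalacturonases differed little. AT4G23820 read 3046 ± 280 in the mutant against 2841 ± 134 in wild type, with a log2 change of 0.10 (95% interval -0.16 to 0.36, adjusted p = 0.588). AT3G16850 read 1930 ± 173 and 1859 ± 116, a log2 change of 0.05 (95% interval -0.22 to 0.33, adjusted p = 0.798). The arrays of both genotypes overlapped in these genes, and the intervals leave out a change of 2-fold. AT3G06770, at 1484, 1532 and 1363 against 1047, 1206 and 1212, separated by array and missed the threshold (log2 change 0.34, SE 0.13, adjusted p = 0.0719; 0.0394 with array weights, in a range over all alternatives of 0.0394 to 0.207). AT1G48100 read 223 ± 27.5 and 179 ± 16.3 without overlap (log2 change 0.31, 95% interval -0.19 to 0.81, adjusted p = 0.356), an interval that does not show the groups to be alike.

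Pectate lyases held the largest single change of the list. AT1G67750 read 1558, 1608 and 1641 in the mutant against 120, 121 and 105 in wild type. Its log2 change was 3.80 (SE 0.16, adjusted p = 8.64e-09), a 14.0-fold rise, with little spread within either genotype. In wild type it had 1 Present call of 3, which leaves the lower level uncertain. Without any one array its log2 change stayed between 3.74 and 3.84.

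Of 12 tested pectate lyases, 4 rose (33.3%) and 3 fell (25%), against 14.4% and 13.9% of all tested probe sets. The median log2 change was 0.20. The arrays separated for 10 (83.3%), against 42.7% of all tested probe sets. AT4G24780 read 4160, 3684 and 3843 in the mutant against 2620, 1861 and 1730 in wild type (log2 change 0.93, SE 0.15, adjusted p = 5.09e-04). AT5G48900 read 2203, 2128 and 2052 against 1128, 1426 and 1437 (0.69, SE 0.14, adjusted p = 0.00206). Both genes were higher on every mutant array. AT3G53190 read 598, 599 and 783 against 421, 438 and 519 (0.52, SE 0.17, adjusted p = 0.0337). That call ended without essp3 replicate 2 or 3 (adjusted p = 0.0566 and 0.131) or wild-type replicate 1 or 2 (0.0875 and 0.0978), with no detection filter (0.0549) and without the variance trend (0.0590).

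The 3 pectate lyases that fell did so by less than 2-fold. AT3G07010 read 740, 707 and 587 in the mutant against 1197, 947 and 1033 in wild type (log2 change -0.64, SE 0.15, adjusted p = 0.00663). AT3G55140 read 483, 479 and 473 against 654, 722 and 703 (-0.53, SE 0.15, adjusted p = 0.0141; 0.0561 without wild-type replicate 2). AT3G24670 read 312, 195 and 293 against 385, 380 and 422 (-0.60, SE 0.21, adjusted p = 0.0463). The groups separated in all 3, but the AT3G24670 call ended when any array except essp3 replicate 1 was left out. Its adjusted p was then 0.201 and 0.0525 without essp3 replicates 2 and 3, and 0.0772, 0.0928 and 0.109 without wild-type replicates 1, 2 and 3.

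PMR6, the pectate lyase gene whose loss is known to make plants resistant to powdery mildew, lay at the threshold. It read 1164, 1006 and 702 in the mutant against 1271, 1264 and 1392 in wild type, lower on every mutant array (log2 change -0.48, SE 0.17, adjusted p = 0.0533). It passed without essp3 replicate 1 (adjusted p = 0.0226), when the filter asked for 6 Present calls (0.0469) and with quantile normalization (0.0453), in a range of 0.0226 to 0.207. AT5G63180, at 3976, 3439 and 3752 against 3290, 2953 and 2383, was equally close (log2 change 0.38, SE 0.14, adjusted p = 0.0503). It passed without wild-type replicate 1 (0.0186), when the filter asked for 6 Present calls (0.0466), with quantile normalization (0.0475) and with an offset (0.0489), in a range of 0.0186 to 0.178.

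**Figure D4:**
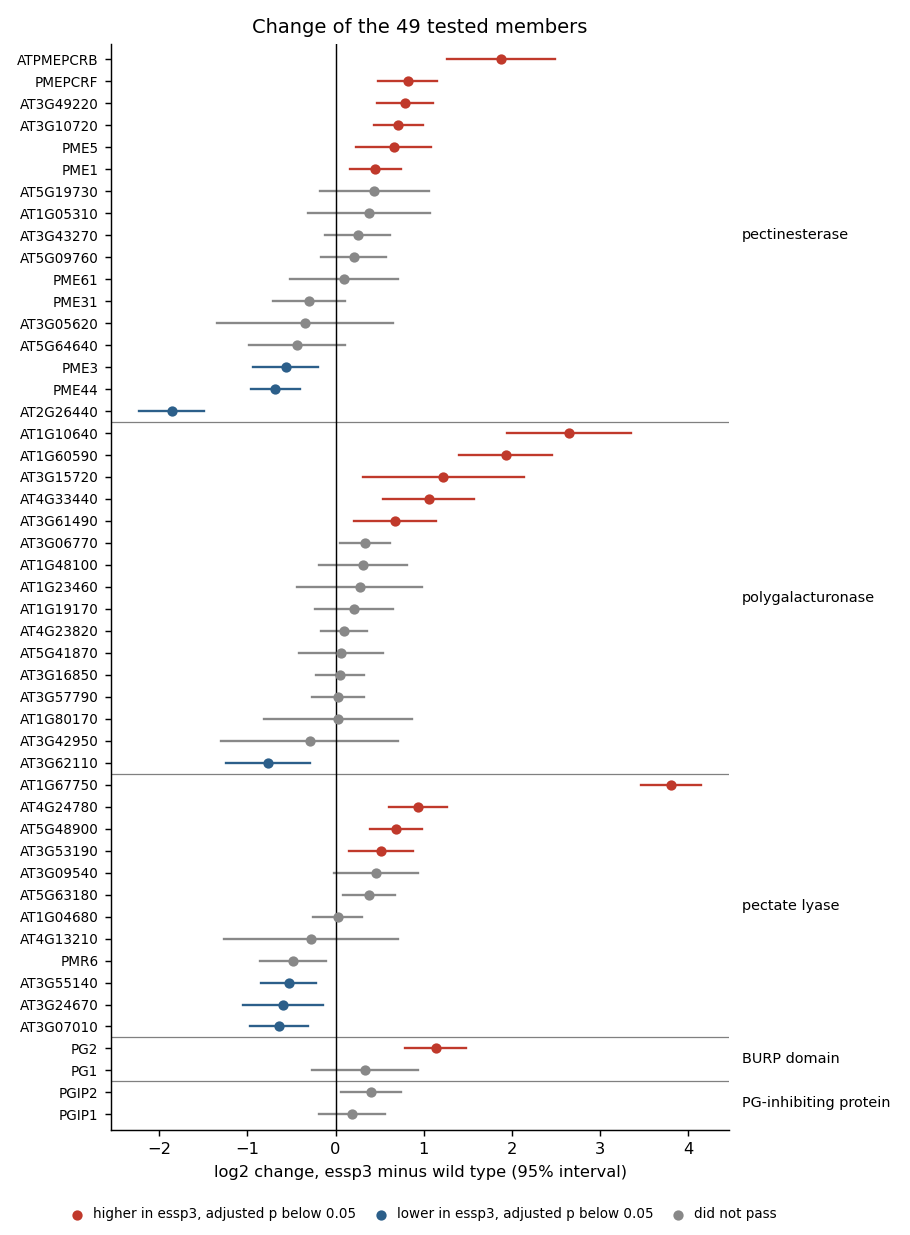
Log2 change (essp3 minus wild type) with its 95% interval for each of the 49 tested members, grouped by class and coloured by call. Rises outnumber falls, 16 to 7; AT1G67750 stands at 3.80 and AT2G26440 at -1.86, and most other changes lie within 1 log2 unit of 0.

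Among the proteins that the titles brought in beside the enzymes, 1 changed. PG2 (AT1G70370), a BURP domain protein related to the non-catalytic β subunit of tomato polygalacturonase, read 3613, 4511 and 3720 in the mutant against 2322, 1648 and 1496 in wild type. It rose by a log2 change of 1.13 (SE 0.16, adjusted p = 1.91e-04), with no overlap. Its relative PG1 read 183 ± 35.9 and 144 ± 20.5, with overlap (log2 change 0.33, SE 0.28, adjusted p = 0.411). PGIP1 and PGIP2, whose products are known to inhibit polygalacturonases of fungi, did not pass. PGIP2 read 1056, 909 and 1025 against 826, 612 and 838, higher on every mutant array (0.41, SE 0.16, adjusted p = 0.0719; 0.0345 with array weights, in a range of 0.0345 to 0.284), and PGIP1 had a log2 change of 0.19 (adjusted p = 0.455).

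The members also lie near each other in the genome. By gene order in the RefSeq annotation of TAIR10.1, 32 of the 149 loci stand directly beside another member, in 18 neighbouring pairs, and both genes of each pair belong to the same class. In 10 pairs neither gene was tested, in 7 exactly 1 was, and PGIP1 with PGIP2 were both tested. These counts are to be read beside the 32.9% of all members that were tested and the 46.9% of tested members that changed. Whether neighbours differ from other members was not tested. In 6 of the 7 the tested gene changed while its neighbour had no Present call. ATPMEPCRB beside AT4G02320, PME1 beside PME2 and AT3G10720 beside RHS12 were such pairs with a rise, and AT2G26440 beside AT2G26450, PME3 beside ATPMEPCRC and PME44 beside AT4G33230 were such pairs with a fall. Of the members, 9 have a probe set suffix that marks probes shared between transcripts, and no such probe set was among the 23 that changed.

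In the other genes of pectin, rises and falls were about equally frequent. A list of 90 probe sets covered pectin synthesis, deacetylation, genes titled as invertase or pectin methylesterase inhibitors, and pectin-binding kinases. Of these, 56 were tested, 7 rose (12.5%) and 9 fell (16.1%), with a median log2 change of -0.01. These shares lie near the 14.4% and 13.9% of all tested probe sets, and whether they differ from those of the enzymes was not tested. Without essp3 replicate 2 the list had 9 calls, and by the authors' deposited unpaired test, adjusted over all tested probe sets, it had 6. Among the genes given below, that test ended the calls of UGD1, WAK2, AT3G62820 and AT4G25260 (adjusted p = 0.0548, 0.101, 0.0753 and 0.0518) and of GAUT1, GAUT7 and AT5G45280 (0.0819, 0.0644 and 0.113). It also ended the calls of the guard cell genes MYB60 and KAT1 (0.127 and 0.0768) given above.

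Few genes for making pectin were called changed. Of 13 tested galacturonosyltransferase genes of the GAUT family, 2 rose (15.4%) and none fell, against 14.4% and 13.9% of all tested probe sets. The share of GAUT genes that rose was thus near the background. GAUT1, the catalytic subunit of homogalacturonan synthesis, rose from 594 ± 96.5 to 855 ± 59.7 (log2 change 0.54, adjusted p = 0.0210), and GAUT7, its membrane anchor, from 585 ± 58.2 to 779 ± 44.7 (0.42, adjusted p = 0.0496). The GAUT1 call ended without essp3 replicate 1 or 2 (adjusted p = 0.0730 and 0.0719) or wild-type replicate 2 (0.0934). The GAUT7 call ended without essp3 replicate 1, 2 or 3 (0.136, 0.131 and 0.0617), without wild-type replicate 2 or 3 (0.175 and 0.0699) and under the replicate block (0.0630). Of 13 tested nucleotide sugar genes, 1 rose (7.69%) and none fell. The gene that rose was the UDP-glucose dehydrogenase gene UGD1 (676 ± 91.5 against 391 ± 36.6, log2 change 0.78, adjusted p = 0.00310). TSD2, also known as QUA2, a methyltransferase of pectin synthesis, fell from 2117 ± 226 to 1245 ± 170 (log2 change -0.77, adjusted p = 0.00140).

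Pectin acetylesterases, which remove acetyl groups from pectin, fell where they changed. Of 8 tested, 4 fell (50%) and none rose, against 13.9% and 14.4% of all tested probe sets. The median log2 change was -0.34, and 2 of the 8 changes were positive. One of these, AT3G05910, was higher on every mutant array but did not pass (log2 change 0.30, SE 0.12, adjusted p = 0.0893). AT4G19420 read 508 ± 60.3 in the mutant against 1134 ± 192 in wild type (log2 change -1.15, adjusted p = 1.71e-04). AT4G19410, AT5G23870 and AT5G45280 fell by 0.53, 0.75 and 0.45 on the log2 scale (adjusted p = 0.00379, 0.00469 and 0.0440). The call of AT5G45280 ended without essp3 replicate 1 or 2 (adjusted p = 0.162 and 0.114), without wild-type replicate 1 or 2 (0.116 and 0.113) and under the replicate block (0.0652).

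Genes titled as invertase or pectin methylesterase inhibitors, whose title does not say which enzyme is inhibited, moved both ways. Of 16 tested, 4 rose (25%) and 3 fell (18.8%), against 14.4% and 13.9% of all tested probe sets, with a median log2 change of 0.02. AT1G23205 rose from 122 ± 58.2 to 630 ± 3.19 (log2 change 2.47, adjusted p = 3.10e-05), Present on 1 of 3 wild-type arrays. AT5G20740 had a signal of 813 ± 185 in the mutant against 175 ± 22.3 in wild type, where it was never Present, a log2 change of 2.20 (SE 0.20, adjusted p = 5.18e-06). The fold of 4.58 uses the wild-type signal as measured, although it was not detected there. AT3G62820 fell from 2389 ± 526 to 1111 ± 64.3 (log2 change -1.08, adjusted p = 2.79e-04) and AT4G25260 by 0.52 (adjusted p = 0.0109; 0.0584 without essp3 replicate 2). WAK2, a wall-associated kinase that binds pectin, fell from 844 ± 240 to 333 ± 70.5 (log2 change -1.33, adjusted p = 4.70e-04).

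**Figure D5:**
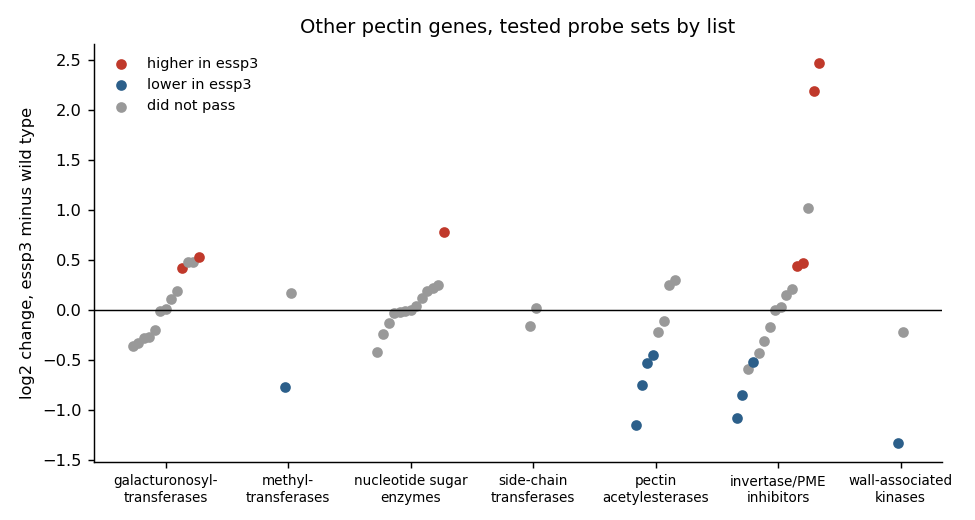
Log2 change (essp3 minus wild type, vertical axis) of the 56 tested probe sets of the other pectin lists, 1 point per gene, coloured by call. Of 8 pectin acetylesterases 4 fell and none rose, invertase and pectin methylesterase inhibitors moved both ways, and most synthesis genes lie near 0.

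The title rule left out 3 probe sets titled as pectin methylesterases. Of these, PMEPCRA (AT1G11580) was the 1 tested. It rose from 402 ± 104 to 751 ± 83.1 (log2 change 0.93, SE 0.20, adjusted p = 0.00330; 0.0652 by the authors' deposited unpaired test after adjustment). With these added, 17 of 50 tested members rose and 7 fell.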

How the data were processed

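The deposited table holds MAS5 signal intensities of 6 ATH1 arrays on a linear scale, which the authors scaled per array to a common mean (1000 over all probe sets), per the file headers. The submitters' processing notes name MAS5 as well. Neither its settings nor a genome build was found in these sources. The authors also deposited a detection call (P, M or A) for each signal. The authors' deposited ratio is mean mutant over mean wild-type signal, their score column is the difference of those means, and their p-value is from an unpaired test, per the file headers; recomputing it on the linear signals gave the same values to within 4.98e-08, so it is not adjusted. The series matrix holds the same intensities.

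Signals were analysed as log2 values without offset. Probe sets Present on at least 3 of 6 arrays (13626 of 22746 other than controls) were fitted in R 4.3.3 by lmFit and eBayes (trend = TRUE) of limma 3.58.1. Tests were two-sided at a threshold of 0.05 after Benjamini-Hochberg adjustment. All adjusted p are from this fit unless another setting is named. The fit was tested on simulated arrays of these 13626 probe sets with 200 changed: it recovered 72.0% of changes of 1 and 95.0% of changes of 2 log2 units, with 6.70% of calls false. In the data many more probe sets, 3865, were called, so these rates need not hold there. Exact permutation of 3 against 3 arrays cannot give a p below 0.1, so none is given.

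Symbols came from RefSeq (TAIR10.1), where all 149 loci matched and 30 have a symbol of their own; gene order, but no coordinates, was taken from it. Named genes are members past the threshold or with unadjusted p under 0.05, the 3 with the highest mean signal in each enzyme class, a short list of known genes, and up to 4 called genes of each other list. AT1G23200, PG1, PGIP1 and the neighbouring genes were named outside this rule, after their values were seen. Members, lists and this rule were chosen with earlier results of these data known. Of the known genes, QRT3 lies outside the title rule, and PPME1 was not analysed here. A rhamnogalacturonan lyase list found no title. Alternatives changed the filter, variance trend, array weights, normalization, offset, block, shared-probe members and test, or left out single arrays; the series matrix values gave identical results.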

Additional observations from a re-analysis of the deposited data

How the results depend on the processing

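Of the 23 members that changed, 10 kept their call under every alternative in which they were tested, and 14 kept it whichever single array was left out. No changed member turned its direction. With single arrays left out, members that rose numbered 12 to 14, members that fell 3 to 7, all calls 2679 to 3638 and calls in the other pectin lists 9 to 14 (9 without essp3 replicate 2). Members that fell numbered 4 without the variance trend, and the cause was not tested. The authors' deposited unpaired test, after Benjamini-Hochberg adjustment, called 8 members higher and 3 lower, 1694 probe sets in all and 6 in the other pectin lists; the cause was not tested. Among members that did not pass, the log2 change turned sign for PME61 without essp3 replicate 2 and for AT3G16850 without essp3 replicate 3; over single arrays left out it ran from -0.189 to 0.327 and from -0.0131 to 0.116. Replicate numbers are shared between genotypes, but deviations of same-numbered arrays from their group means correlated at 0.020 to 0.032 only, so the numbers were not taken as pairs; each array correlated best with its own number. With the replicate block 15 members rose, 7 fell, 3737 probe sets were called and 14 in the other lists. The alternatives for the other lists and the changes of the member rule were added after seeing the data. The number of arrays limits precision: the median SE of a member was 0.17.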
